A study of Mus musculus with 12 samples.

Results

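Messenger RNA of 9 genes that set the output of mitochondrial biogenesis was followed in sorted mouse pluripotent stem cells. They were the coactivators Ppargc1a, Ppargc1b and Pprc1, the nuclear respiratory factor genes Nrf1 and Gabpa, the orphan nuclear receptor gene Esrra, the deacetylase gene Sirt1, and Prkaa1 and Prkaa2, which encode the catalytic subunits of AMP-activated protein kinase (AMPK). The genes were picked by name, and each had 1 probe set, so that 9 of the 25206 probe sets of the table are described. The 12 samples were sorted fractions of induced pluripotent stem cells (iPSC), made from body cells by reprogramming, and of embryonic stem cells (ESC). Both were female and of C57BL/6 background, and both were kept undifferentiated without feeder cells in 2iLIF medium on gelatin. The sort used TMRM, tetramethylrhodamine methyl ester, a dye that gathers in mitochondria as their membrane potential rises, to part low from high cells. The 4 groups were iPSC high, iPSC low, ESC high and ESC low, with 3 Affymetrix arrays each, numbered 2, 3 and 4. How many lines or cultures lie behind a group, and how the iPSC were made, could not be read from the labels. The p-values therefore rest on array-to-array spread, which may be technical.

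As background, the PGC-1 coactivators do not bind DNA themselves. They dock on nuclear receptors such as ERR alpha, the product of Esrra, and on NRF1 and GABP (GABP is also called NRF2), and these factors switch on nuclear genes of the respiratory chain and of mitochondrial DNA upkeep. PGC-1 alpha, the product of Ppargc1a, is best known from brown fat, muscle and liver, where cold, exercise and fasting raise it. Its protein is phosphorylated by AMPK, which senses low energy, and deacetylated by SIRT1, which uses NAD+. These modifications act on protein and cannot be read from an mRNA array.

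All values are log2 expression as deposited by the authors, and all differences are log2 differences from limma with their standard error (SE). A gene was called when its Benjamini-Hochberg adjusted p over all 25206 probe sets was under 0.05. Array medians lay between 3.51 and 3.61, and lower quartiles between 2.08 and 2.20. Of 10 pluripotency markers, 7 lay above the upper quartile of every array and 0 lay below the median of every array, while 7 of 12 fibroblast markers and 7 of 8 blood and macrophage markers lay below the median of every array. Of the pluripotency markers 1 was called, Dppa3, a germ line and naive-state gene, which fell in iPSC relative to ESC (-1.20 ± 0.20, adjusted p = 0.00687). Of all probe sets, 1.96% were lower in that comparison. The fibroblast list averaged 2.78 to 2.81 in iPSC high, 2.71 to 2.86 in iPSC low, 2.75 to 2.81 in ESC high and 2.77 to 2.87 in ESC low. In any comparison 0 of its members were called, where at most 2.87% of all probe sets were. The blood and macrophage list averaged 2.97 to 3.10 in iPSC high, 2.90 to 3.05 in iPSC low, 2.94 to 2.99 in ESC high and 2.82 to 2.93 in ESC low. Its 1 called member was Cd68, a lysosomal protein of macrophages and other cells, which rose with the high fraction (0.82 ± 0.09, adjusted p = 0.000828). Of all probe sets, 1.6% were higher there. Cd68 lay above the upper quartile of every array, with means of 9.18 in iPSC high, 8.51 in iPSC low, 8.99 in ESC high and 8.02 in ESC low.

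None of the 9 genes was called in any comparison. This was 0 of 9 in ESC high against ESC low, where 0.357% of all probe sets were called, 0 of 9 in iPSC high against iPSC low (0.547%) and 0 of 9 in high against low over both cell types (2.5%). It was also 0 of 9 in iPSC against ESC over both fractions (2.87%) and in the difference of the high minus low effects between the cell types, where 0% of probe sets were called. With 9 genes, a count of 0 is near each of these shares and says nothing particular to them. At an unadjusted p under 0.05, limma passed 1 of the 9 in ESC (Gabpa; 8.29% of all probe sets), 2 in iPSC (Ppargc1a and Gabpa; 12.7%), 1 over both cell types (Gabpa; 15.6%), 2 between iPSC and ESC (Ppargc1b and Gabpa; 14.7%) and 1 for the difference of effects (Ppargc1a; 4.36%). The median log2 difference of the 9 was -0.06 for high minus low over both cell types, against 0.00 for all probe sets, and 0.09 for iPSC minus ESC, against 0.01. The median absolute difference was 0.10 and 0.13 in those comparisons, against 0.09 and 0.08 for all probe sets.

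**Figure D1:**
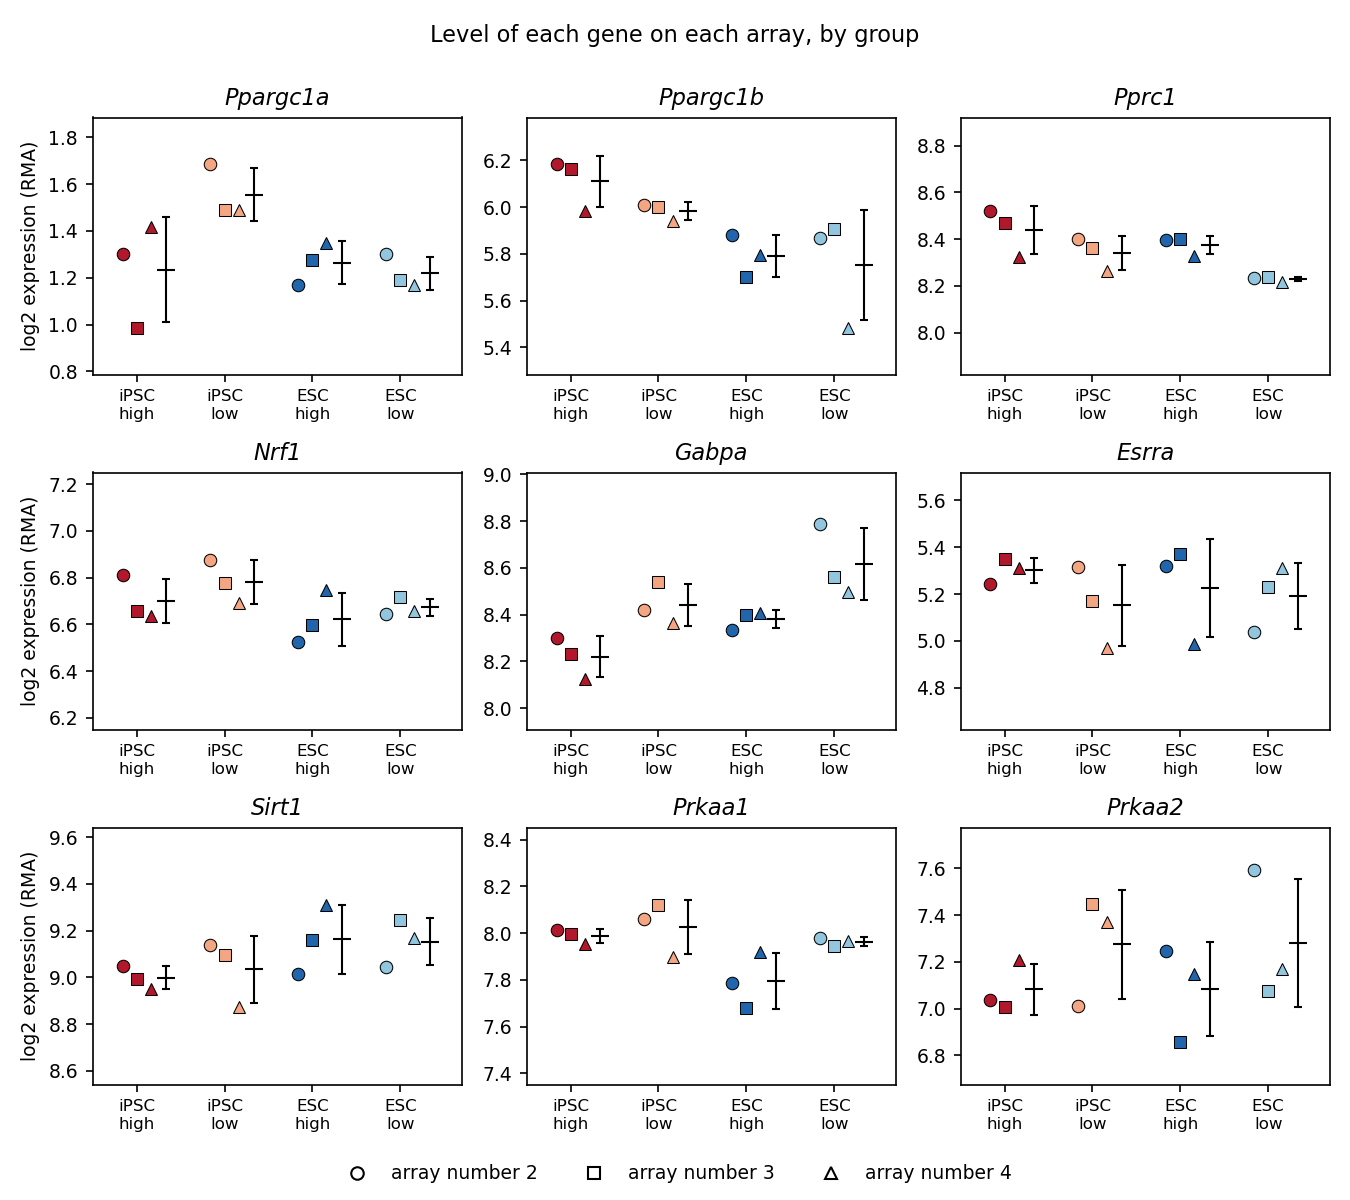
Log2 expression of each of the 9 genes on each of the 12 arrays, by group (y axis, every panel spans the same log2 range). Symbols mark the array number, and bars give the mean and SD of 3 arrays; the separations that stand out are Gabpa, lower in high than in low in both cell types, and Ppargc1b, higher in iPSC than in ESC.

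Ppargc1a, the inducible coactivator, was at the bottom of the scale on every array. Its values were 1.30, 0.99 and 1.42 in iPSC high, against 1.68, 1.49 and 1.49 in iPSC low. They were 1.17, 1.28 and 1.35 in ESC high, against 1.30, 1.19 and 1.17 in ESC low. All 12 values lay between the 1.73 and the 14.4 percentile of their arrays and below the lower quartile, and the table has no detection calls, so whether this probe set measured transcript or background cannot be told. In iPSC the high arrays all lay below the low arrays (-0.32 ± 0.12, adjusted p = 0.262), whereas in ESC the groups overlapped (0.05 ± 0.12, adjusted p = 0.953). The difference between these effects was -0.36 ± 0.16 (adjusted p = 0.9998) and was not called. Over both fractions iPSC minus ESC was 0.15 ± 0.08 (adjusted p = 0.439).

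Ppargc1b, the constitutive relative that drives many of the same targets, was well above the array medians. Its values were 6.18, 6.16 and 5.98 in iPSC high and 6.01, 6.00 and 5.94 in iPSC low. In ESC they were 5.88, 5.70 and 5.80 in the high fraction and 5.87, 5.91 and 5.48 in the low fraction. Every one of the 6 iPSC arrays was therefore above every one of the 6 ESC arrays, the closest being 5.94 in iPSC low and 5.91 in ESC low. Of all probe sets, 2.75% separated the 6 iPSC from the 6 ESC arrays without overlap, and Ppargc1b was the single member of the 9 to do so. The means were 6.05 in iPSC and 5.77 in ESC, a difference of 0.27 ± 0.08, or 1.21-fold with a 95% interval of 1.07- to 1.37-fold. The adjusted p was 0.110, so the difference was not called. High and low fractions overlapped in both cell types, with 0.13 ± 0.12 in iPSC (adjusted p = 0.709) and 0.04 ± 0.12 in ESC (adjusted p = 0.959).

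Pprc1, the serum-responsive member of the coactivator family, varied least of the 9, with a range of 0.30 over the 12 arrays and a within-group SD of 0.07. Its values were 8.52, 8.47 and 8.33 in iPSC high, against 8.40, 8.36 and 8.26 in iPSC low. They were 8.40, 8.40 and 8.33 in ESC high, against 8.23, 8.24 and 8.22 in ESC low. The ESC fractions did not overlap and the iPSC fractions did. High minus low was 0.15 ± 0.09 in ESC (adjusted p = 0.706) and 0.10 ± 0.09 in iPSC (adjusted p = 0.694). Compared by array number, the high array exceeded its low partner in 6 of 6 pairs, by 0.06 to 0.16, with a mean of 0.12 ± 0.04 (SD, n = 6 pairs). The fit over both cell types gave a fold of 1.09 with a 95% interval of 0.994 to 1.19 (adjusted p = 0.360).

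Gabpa, which encodes the DNA-binding subunit of GABP, had the lowest adjusted p of the 9 genes for high minus low over both cell types and in ESC, while in iPSC that of Ppargc1a was lower. Its values were 8.30, 8.23 and 8.13 in iPSC high, against 8.42, 8.54 and 8.36 in iPSC low. They were 8.34, 8.40 and 8.41 in ESC high, against 8.79, 8.56 and 8.50 in ESC low. In each cell type all high arrays lay below all low arrays, a pattern with equal direction in both cell types that 3.82% of all probe sets showed and that Gabpa alone showed among the 9. High minus low was -0.22 ± 0.10 in iPSC (adjusted p = 0.384) and -0.23 ± 0.10 in ESC (adjusted p = 0.538). Over both cell types it was -0.23 ± 0.07, a fold of 0.854 with a 95% interval of 0.769 to 0.949 and an adjusted p of 0.124, and the difference of the effects was 0.01 ± 0.14. The paired differences ran from -0.45 to -0.09 and were below 0 in 6 of 6 pairs. The groups ranked iPSC high (8.22), ESC high (8.38), iPSC low (8.44) and ESC low (8.61) from low to high mean. The arrays of ESC high and iPSC low overlapped, as did those of iPSC low and ESC low. The highest iPSC high array, 8.30, was just below the lowest ESC high array, 8.34. The share of all probe sets that separate these groups was not counted, so this gap says nothing particular to Gabpa. The iPSC minus ESC difference was -0.17 ± 0.07 (adjusted p = 0.284).

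The G2 and mitosis genes moved with the same sort. Their mean level was 8.51 to 8.58 in iPSC high and 8.07 to 8.12 in iPSC low, and 8.39 to 8.54 in ESC high and 7.97 to 8.04 in ESC low. Of 19 measured, 10 rose in ESC (0.305% of all probe sets were higher), 10 rose in iPSC (0.349%) and 14 rose over both cell types (1.6%). The counts in ESC fell to 3 and in iPSC to 0 in the least favourable case of a left-out array, and that over both cell types to 11; fitted on 6 arrays alone, 1 of the 10 was called in ESC and 6 of the 10 in iPSC. The mitotic kinase Aurka, for instance, rose by 0.85 ± 0.09 (adjusted p = 0.000448). The part of cell cycle position in the Gabpa and Pprc1 values was not tested.

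Nrf1, a factor that binds GC-rich palindromes in respiratory gene promoters, showed no separation of the groups. Its values were 6.81, 6.66 and 6.64 in iPSC high and 6.88, 6.78 and 6.69 in iPSC low, and 6.52, 6.60 and 6.75 in ESC high and 6.65, 6.72 and 6.66 in ESC low. High minus low was -0.08 ± 0.09 in iPSC and -0.05 ± 0.09 in ESC, and over both cell types the 95% interval of the fold ran from 0.865 to 1.06 (adjusted p = 0.701). An adjusted p of this size does not show that the fractions had equal levels. The paired difference was below 0 in 5 of 6 pairs. The iPSC minus ESC difference was 0.09 ± 0.07 (adjusted p = 0.591).

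Esrra, the receptor gene through which PGC-1 coactivators raise respiratory and fatty acid oxidation genes, overlapped in every comparison. Its values were 5.24, 5.35 and 5.31 in iPSC high and 5.31, 5.17 and 4.97 in iPSC low, and 5.32, 5.37 and 4.99 in ESC high and 5.04, 5.23 and 5.31 in ESC low. In ESC its paired differences were 0.28, 0.14 and -0.33, with 4 of 6 pairs above 0 over both cell types. High minus low over both cell types was 0.09 ± 0.09, with a fold interval of 0.932 to 1.22 (adjusted p = 0.686), and iPSC minus ESC was 0.02 ± 0.09 (adjusted p = 0.959).

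**Figure D2:**
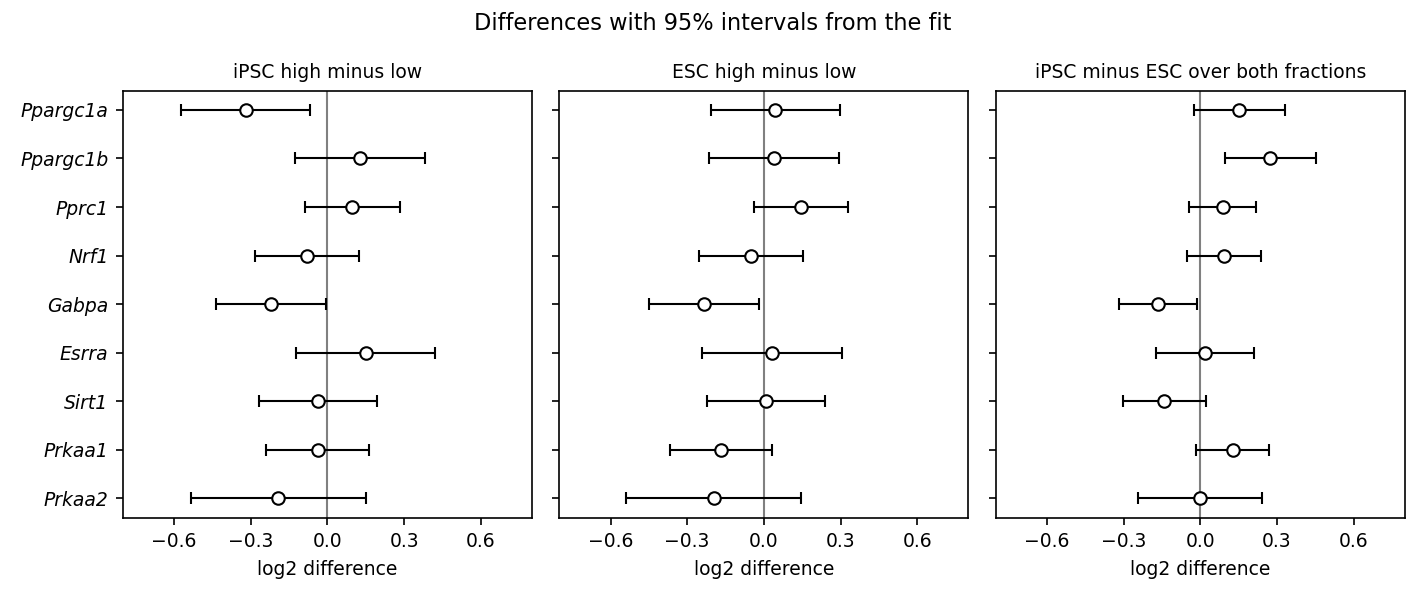
Log2 differences of the 9 genes with 95% intervals from limma (x axis) for the iPSC fractions, the ESC fractions, and iPSC minus ESC over both fractions; the fraction panels show high minus low. The unadjusted intervals leave out 0 for Gabpa in all 3 panels, for Ppargc1a in iPSC and for Ppargc1b between the cell types, but none of these was called after adjustment over all probe sets.

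Sirt1, the NAD+-dependent deacetylase of PGC-1 alpha, gave the smallest fraction effect over both cell types. Its values were 9.05, 8.99 and 8.95 in iPSC high and 9.14, 9.09 and 8.87 in iPSC low, and 9.01, 9.16 and 9.31 in ESC high and 9.04, 9.25 and 9.17 in ESC low. High minus low over both cell types was -0.01 ± 0.08 (adjusted p = 0.958), with a fold interval of 0.884 to 1.11. iPSC minus ESC was -0.14 ± 0.08 (adjusted p = 0.431) and was not called.

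Prkaa1 encodes the AMPK alpha subunit found in most cells, and Prkaa2 the one prominent in muscle and heart. Prkaa1 was at 8.01, 8.0 and 7.95 in iPSC high and 8.06, 8.12 and 7.90 in iPSC low, and at 7.79, 7.68 and 7.92 in ESC high and 7.98, 7.94 and 7.97 in ESC low. The ESC high arrays lay below the ESC low arrays without overlap (-0.17 ± 0.09, adjusted p = 0.678), whereas the iPSC fractions overlapped (-0.04 ± 0.09, adjusted p = 0.911). The difference between the effects was 0.13 ± 0.13 and was not called, and iPSC minus ESC was 0.13 ± 0.07 (adjusted p = 0.412). Prkaa2 was at 7.04, 7.01 and 7.21 in iPSC high and 7.01, 7.45 and 7.37 in iPSC low, and at 7.25, 6.86 and 7.15 in ESC high and 7.59, 7.08 and 7.17 in ESC low. It had the widest within-group SD of the 9 (0.21), and its groups overlapped in all comparisons. High minus low over both cell types was -0.19 ± 0.11 (adjusted p = 0.445), with a fold interval of 0.739 to 1.03, which is the widest interval among the 9 in that comparison.

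Counted over the 9 genes, 3 separated ESC high from ESC low without overlap (Pprc1 higher, Gabpa and Prkaa1 lower), where 13.1% of all probe sets did. In iPSC 2 did so (Ppargc1a and Gabpa, both lower), where 19.3% of all probe sets did. The sign of the paired difference was the same in 6 of 6 numbered pairs for 2 genes, Pprc1 and Gabpa, against 12.7% of all probe sets. Counts of 1 to 3 among 9 genes are too few to tell from those shares.

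**Figure D3:**
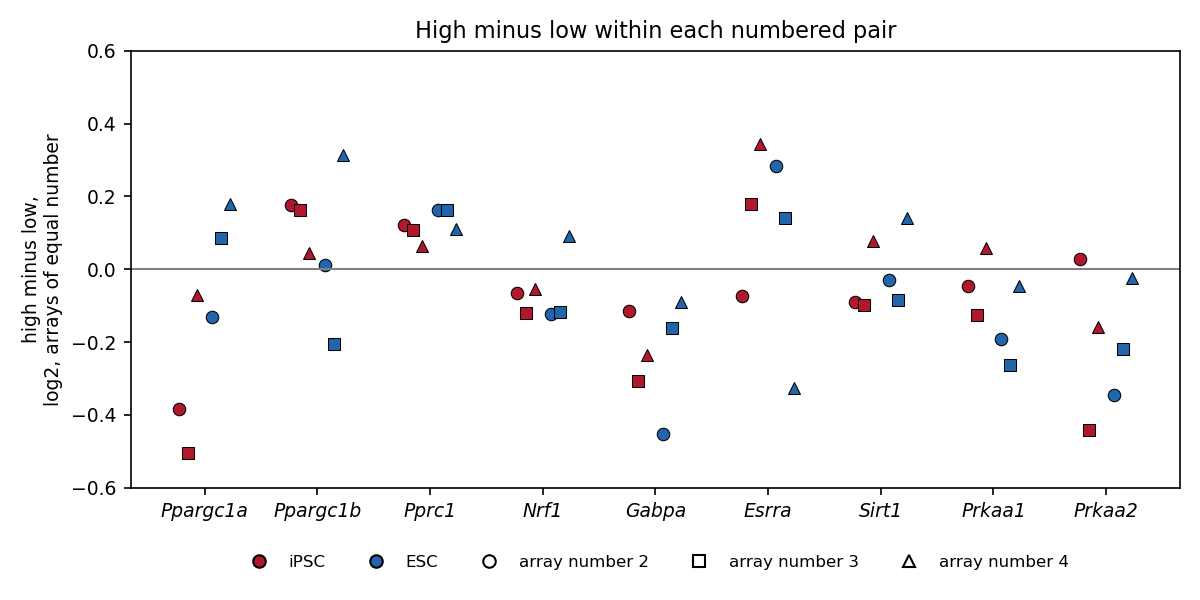
High minus low log2 difference of the 9 genes within each pair of arrays of equal number (y axis), for iPSC (red) and ESC (blue). All 6 points lie above 0 for Pprc1 (0.06 to 0.16) and below 0 for Gabpa (-0.45 to -0.09), and the other genes have points on both sides.

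The partners that carry or modify these factors held no called gene between the fractions, where 0.357% to 2.5% of all probe sets were called. Of 7 GABP and NRF1 partners and cofactors, 0 were called in any comparison, also between the cell types (2.87% of all probe sets). In lists this small a count of 0 is near those shares and says nothing particular to these genes. Gabpb1 and Gabpb2, the beta subunits that GABP needs to activate transcription, were at -0.07 ± 0.06 and -0.03 ± 0.08 for high minus low over both cell types. The largest cell type difference there was in Yy1, a factor that PGC-1 alpha binds on mitochondrial genes, at -0.19 ± 0.07 for iPSC minus ESC (adjusted p = 0.168). Of 11 acetyltransferases and corepressors that act on PGC-1, 0 were called. The lowest adjusted p was that of Prmt1, a methyltransferase of PGC-1 alpha, at 0.20 ± 0.06 for high minus low (adjusted p = 0.117), and the acetyltransferase Kat2a was at 0.11 ± 0.08.

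Of 13 nuclear receptors that PGC-1 coactivators bind, 0 were called between fractions, where 0.357% to 2.5% of all probe sets were called. Between cell types 1 rose in iPSC over ESC (0.916% of all probe sets were higher). This was Hnf4a, a receptor of liver and endoderm, with means of 4.28 and 4.21 in iPSC high and low, against 3.51 and 3.64 in ESC high and low (0.67 ± 0.10, adjusted p = 0.00421). Its lowest iPSC array, 4.05, was above its highest ESC array, 3.85, a separation of iPSC from ESC that 2.75% of all probe sets showed. The ESC means of Hnf4a lay near the array medians (3.51 to 3.61), and without detection calls its levels cannot be told from background. Rxra, the shared partner of many receptors, was at 0.36 ± 0.10 for iPSC minus ESC (adjusted p = 0.0865). Esrrb, the ERR family member that belongs to the naive pluripotency network, was at -0.22 ± 0.06 for iPSC minus ESC (adjusted p = 0.0957) and at -0.02 ± 0.06 for high minus low.

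Among the other AMPK genes, of 11 regulatory subunits and upstream kinases, 0 were called between fractions (0.357% to 2.5% of all probe sets). In iPSC relative to ESC 1 fell (1.96% of all probe sets were lower). This was the gamma subunit gene Prkag2, at 4.55 and 4.50 in iPSC high and low and 4.97 and 5.01 in ESC high and low (-0.46 ± 0.11, adjusted p = 0.0385). The call was lost with the replicate block as a random effect (adjusted p = 0.0616), with array weights (adjusted p = 0.0503) and without any 1 of 9 of the 12 arrays. The beta subunits Prkab2 and Prkab1 had the lowest p for high minus low, at -0.33 ± 0.10 (adjusted p = 0.138) and -0.20 ± 0.06 (adjusted p = 0.148). Among 11 genes of the folliculin branch and AMPK substrates, 2 fell in iPSC relative to ESC (1.96% of all probe sets were lower). Between fractions 0 of these 11 were called (0.357% to 2.5% of all probe sets). Acacb, the mitochondria-associated acetyl-CoA carboxylase that AMPK phosphorylates, was at 4.72 and 4.86 in iPSC high and low, against 5.31 and 5.39 in ESC high and low (-0.56 ± 0.11, adjusted p = 0.0207). Ulk1, the autophagy kinase, differed by -0.26 ± 0.06 (adjusted p = 0.0322, or 0.0640 with the replicate block as a random effect), and this call was also lost without any 1 of 8 of the 12 arrays. Of 12 sirtuin and NAD+ salvage genes 0 were called, where 0.357% to 2.5% of all probe sets were called between fractions and 2.87% between cell types. The lowest adjusted p were those of Nmnat1, a nuclear enzyme of NAD+ synthesis, for high minus low (-0.27 ± 0.07, adjusted p = 0.0781) and of the mitochondrial sirtuin Sirt4 for iPSC minus ESC (-0.49 ± 0.14, adjusted p = 0.0885).

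Of 22 measured genes reported as NRF1 or GABP targets, 2 rose in the high fraction over both cell types (1.6% of all probe sets were higher) and 0 fell (0.905% were lower), with a list median of 0.04. Within a single cell type 0 of the 22 were called (lowest adjusted p 0.178 in ESC and 0.153 in iPSC). Of all probe sets, 0.357% were called in ESC and 0.547% in iPSC. Polg2, which encodes the processivity subunit of the polymerase that copies mitochondrial DNA, was at 6.71 ± 0.30 in iPSC high, against 5.91 ± 0.13 in iPSC low, and at 6.34 ± 0.36 in ESC high, against 5.45 ± 0.47 in ESC low (SD, n = 3 each). The fit gave 0.84 ± 0.16 (adjusted p = 0.0173, or 0.0509 without iPSC high replicate 4). Cycs, cytochrome c, was at 4.53 ± 0.20 in iPSC high, against 3.71 ± 0.35 in iPSC low, and at 4.33 ± 0.49 in ESC high, against 3.50 ± 0.40 in ESC low (SD, n = 3 each). Its low-fraction means lay near the array medians (3.51 to 3.61), and there are no detection calls to tell how much of this was background. The fit gave 0.82 ± 0.18 (adjusted p = 0.0311), and this call was lost without any 1 of 8 arrays, namely ESC low replicates 2 and 4, ESC high replicates 2 and 3, iPSC low replicates 3 and 4, and iPSC high replicates 3 and 4 (adjusted p from 0.0725 to 0.0828). Tfam, which packages mitochondrial DNA and starts its transcription, was at -0.29 ± 0.10 (adjusted p = 0.158), the rRNA methyltransferase Tfb1m at -0.27 ± 0.08 (adjusted p = 0.0975) and the mitochondrial RNA polymerase Polrmt at 0.05 ± 0.07, and none of them was called for high minus low. Between the cell types Tfb1m fell in iPSC, with means of 7.06 in iPSC and 7.39 in ESC (-0.33 ± 0.08, adjusted p = 0.0387, or 0.0691 with the replicate block as a random effect), and this call was also lost without any 1 of 10 of the 12 arrays.

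To show which of these genes carry the letters of the factors' sites, the window from 250 bases before to 50 after each transcript start was read from RefSeq, build GRCm38.p6, and searched on both strands. The letters were GCGCA and GCGC with any 1 base between them for NRF1, CCGGAAGTG for GABP, TCAAGGTCA for ERR and TGACGTCA for the cAMP response element (CRE), at which PGC-1 alpha gene expression is known to be induced in liver. None of these words contains another. Of all 32851 windows, 4.6% held the NRF1 letters, 2.03% the GABP letters, 0.423% the ERR letters and 1.79% the CRE. Of the 9 regulators, 8 had an entry, with 9 windows in which 0 matches to any of the 4 were found, and Ppargc1b had no entry. Of 21 windows of 19 reported targets, 9 windows in 7 genes held the NRF1 letters, 2 the GABP letters, 1 the ERR letters and 1 the CRE.

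The 6 upstream matches below, 1 per gene, are examples from the measured NRF1 and GABP targets, shown so that the letters can be read beside the values. Alas1 has a further upstream NRF1 match, and Fmr1 also has an upstream NRF1 match, which are not printed. They are given with the matched letters in capitals and 12 flanking bases in lower case, cut at the transcript start where it is nearer. Each is written 5′ to 3′ on the strand of its gene, so a match to the reverse complement appears as such. All 6 genes are on the minus strand except Tomm70a. Cycs lies at chr6:50566719-50566750, Sdhd at chr9:50603907-50603940, Alas1 at chr9:106247904-106247937, Tomm20 at chr8:126945922-126945953, Mef2a at chr7:67372889-67372922 and Tomm70a at chr16:57121622-57121654.
Cycs (CRE): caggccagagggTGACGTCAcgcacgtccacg
Sdhd (NRF1): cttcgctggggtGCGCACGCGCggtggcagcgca
Alas1 (NRF1): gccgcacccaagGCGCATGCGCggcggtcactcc
Tomm20 (NRF1): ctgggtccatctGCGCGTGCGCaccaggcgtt
Mef2a (NRF1): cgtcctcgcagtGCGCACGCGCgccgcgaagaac
Tomm70a (GABP): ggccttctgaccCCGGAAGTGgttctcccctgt

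Of these 6, the gene called between fractions over both cell types was Cycs, a reported NRF1 or GABP target, which held a CRE and no match to the other words. Whether the letters relate to the calls was not tested. No measured target with NRF1 letters was called for high minus low over both cell types. Sdhd, a membrane anchor of complex II, was at 0.08 ± 0.08, Alas1, the first enzyme of haem synthesis, at -0.01 ± 0.07, the import receptor Tomm20 at 0.02 ± 0.07, Polrmt at the 0.05 given above, and Fmr1 at -0.10 ± 0.07. The transcription factor Mef2a was at -0.19 ± 0.08 (adjusted p = 0.245). Tomm70a, an import receptor with the GABP letters, was at 0.02 ± 0.06. A match says that these letters stand in this window and not that a factor was bound.

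Of 17 measured genes reported as targets of PGC-1 and ERR, 0 were called between fractions (0.357% to 2.5% of all probe sets). High minus low over both cell types had a median of -0.01 and a range that included Idh3a, a subunit of a citric acid cycle dehydrogenase, at -0.18 ± 0.07 (adjusted p = 0.242). Between cell types 1 rose in iPSC, where 0.916% of all probe sets were higher, the peroxisomal enzyme catalase, Cat, at 9.41 and 9.58 in iPSC high and low, against 9.03 and 9.20 in ESC high and low (0.38 ± 0.09, adjusted p = 0.0427). The call was lost with the replicate block as a random effect (adjusted p = 0.0732), with arrays centred on their medians (adjusted p = 0.0597) and without any 1 of 10 of the 12 arrays. Of 9 muscle and brown fat genes that mark tissues with high PGC-1 alpha activity, 1 rose with the high fraction, where 1.6% of all probe sets were higher, the skeletal actin Acta1 (0.75 ± 0.11, adjusted p = 0.0037), and 7 of the 9 lay below the median of every array. The list averaged 3.17 to 3.32 in iPSC high and 2.93 to 2.97 in iPSC low, and 3.11 to 3.19 in ESC high and 2.88 to 2.97 in ESC low. Nfe2l2 and Nfe2l1, unrelated stress factors that share the names NRF2 and NRF1 with the genes described here, were at -0.13 ± 0.07 and 0.03 ± 0.07 for high minus low and were not called, and Nfe2l3 was at 0.30 ± 0.08 (adjusted p = 0.0817, or 0.0475 with the replicate block).

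The iPSC against ESC calls treat arrays of equal number as independent. With the cell type and number as a random block, 143 probe sets were higher and 320 lower in iPSC, against 231 and 493 without it. Hnf4a and Acacb stayed under the threshold in that fit, while Prkag2, Ulk1, Tfb1m and Cat did not. Left-out arrays ended the call of Acacb (without ESC low replicate 4, ESC high replicates 3 and 4, or iPSC high replicate 3, with an adjusted p from 0.0511 to 0.0548).

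**Figure D4:**
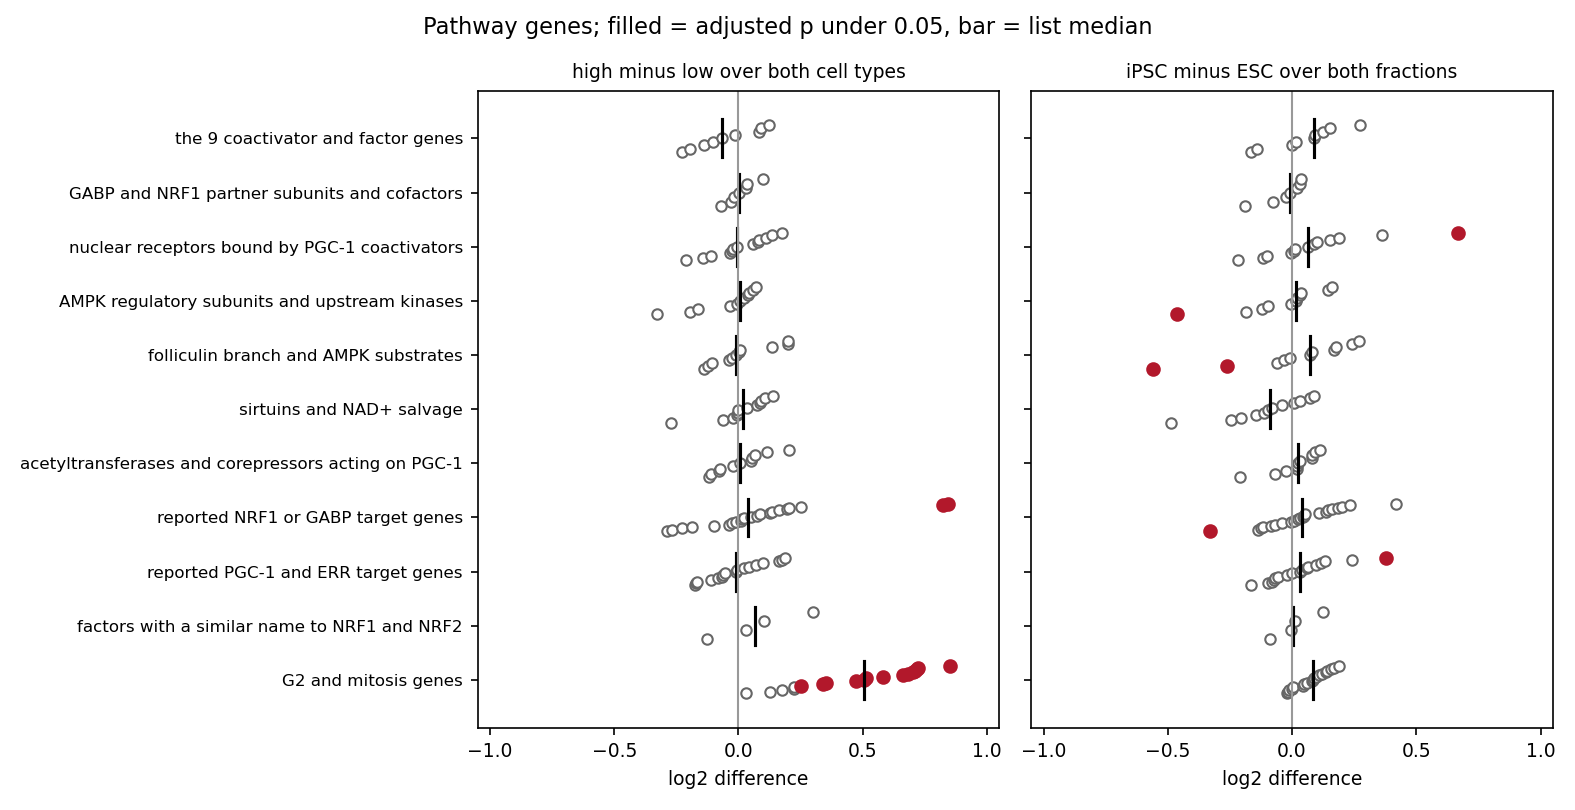
Log2 differences (x axis) of the genes of each list (rows) for high minus low over both cell types and for iPSC minus ESC. Filled points passed an adjusted p of 0.05 and bars mark list medians; Polg2 and Cycs stand at 0.84 and 0.82 among the NRF1 and GABP targets, and the G2 and mitosis list has a median of 0.51.

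The named genes whose pattern over the 12 arrays was most like that of each regulator were ranked by Pearson's r among all annotated probe sets, with predicted and small RNA genes left out. The arrays share cell type and fraction, and a maximum over so many genes is high by construction, so these values only describe the arrays. For Gabpa they were Paics (0.95), a purine synthesis enzyme, Chml (0.95) and Tmed7 (0.94). Those for Ppargc1b were Slc22a12 (0.88), D2hgdh (0.88) and Acsl6 (0.87). Pprc1 was closest to Fam24b (0.95), Fhl3 (0.93) and Pla2g4c (0.92), and Nrf1 to Decr2, Cdc37l1 and Mysm1 (0.93 each). For Sirt1 they were Atrx (0.94), a chromatin remodeller, Npepps (0.92) and Rell1 (0.91). Prkaa1 was closest to Hltf (0.92), Dcaf6 and Tial1 (0.87 each), Prkaa2 to Spire1 (0.94), Clip3 and Lsm8 (0.93 each), Esrra to Loxl4 (0.92), Ap1b1 (0.90) and Septin5 (0.88), and the dim Ppargc1a to Ehd4 (0.96), Brinp1 (0.95) and Osgep (0.92).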

How the data were processed

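RNA of 12 sorted cell samples was labelled with biotin and hybridised to Affymetrix arrays. The authors deposited log2 expression values, 1 column per array; the tools named per the submitters' processing notes are R 2.15.1, affy 1.36.1 and RMA, a method that adjusts for background, forces arrays to a shared distribution and summarises probes. No detection call comes with such values. Neither chip definition nor genome build is stated in those sources. Of 25206 probe sets, 23185 had 1 gene symbol in the platform annotation, 0 several and 2021 none; a RefSeq table of GRCm38.p6 changed 0 symbols. Precision is limited by the number of arrays.

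Fits used limma 3.58.1 in R 4.3.3 with 1 mean per group over all 12 arrays, no block, and moderated variances without a trend. Intervals are 95% and unadjusted. The rule for named genes took all 9 regulators, every called gene of a pathway list, otherwise up to 3 with the lowest p in high minus low or iPSC minus ESC, and the 3 most alike genes; Tfam and the targets with motif matches were named outside this rule, after their values were seen, and of the G2 and mitosis list only an example is named. The genes, lists and motifs were chosen with earlier results of these data known. The fits were tested on simulated arrays drawn independently, with changes only in probe sets above the median level. This cannot show how the fits behave where arrays correlate. Residuals of high and low arrays of equal number correlated at 0.11 to 0.34 and those of other numbers at -0.23 to 0.00, so equal numbers were treated as pairs of fractions, which is inferred and not in the labels. Alternatives were an intensity trend, the brighter probe sets only, median centring, a replicate block (fixed, and random, the random one added after seeing the data), each cell type alone, array weights and leaving out each array. Of the listed genes Camkk1, Cd38, Ncor1, Cox7c, Eif2s1, Cpt1b, Ucp2, Ccnb1, Lyz2 and Hba-a1 were not analysed here. Python 3.11.15 with matplotlib 3.10.9 made the figures.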

Additional observations from a re-analysis of the deposited data

Results flagged for a closer look

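Alas1, the first enzyme of haem synthesis, was flagged because its numbered pairs ran in opposite directions in the cell types. The share of all probe sets with such opposite pairs was not counted, so this pattern says nothing particular to Alas1. High minus low was -0.12, -0.16 and -0.02 in the 3 iPSC pairs and 0.12, 0.04 and 0.09 in the 3 ESC pairs. The difference of the effects, tested as an interaction in limma, was -0.19 ± 0.13 (SE, adjusted p = 0.9998) and was not called. Of all probe sets, 0% were called for it.
Tfe3, a transcription factor of the folliculin branch, showed the same opposition, at -0.03, -0.08 and -0.23 in the iPSC pairs and 0.27, 0.10 and 0.02 in the ESC pairs. Its difference of effects was -0.24 ± 0.15 (SE, adjusted p = 0.9998) and was not called. Without the share of all probe sets, this pattern says nothing particular to Tfe3.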

How the results depend on the processing

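Under the alternatives other than leaving out an array, 267 of 274 values of the 9 regulators kept their direction and their side of the threshold, 0 became called (lowest adjusted p 0.0522, for Gabpa over both cell types with an intensity trend) and 7 turned sign, none of them a called value. With arrays centred, Sirt1 in ESC was at -0.0127 and the difference of effects at -0.0217 for Gabpa and -0.0311 for Prkaa2; with array weights these were -0.0099, -0.0244 and -0.0292, and Prkaa2 in iPSC minus ESC was 0.0407. Among the other genes named, none of them called, centring put high minus low over both cell types at -0.007 for Mybbp1a, -0.0234 for Tomm20, -0.0176 for Tomm70a and -0.0106 for Nfe2l1, and iPSC minus ESC at -0.004 for Nfe2l3; array weights gave -0.0045 for Tomm20 and -0.0012 for Nfe2l3. Leaving out 1 array turned the sign of Ppargc1b (-0.0956 to 0.1162), Esrra (-0.0457 to 0.1519) and Sirt1 (-0.0651 to 0.0823) in ESC, of Sirt1 (-0.1181 to 0.0154) and Prkaa1 (-0.1028 to 0.0104) in iPSC, and of Sirt1 over both cell types (-0.0547 to 0.0229). It turned the difference of effects of Pprc1 (-0.0893 to 0.0092), Nrf1 (-0.0842 to 0.0321), Gabpa (-0.0719 to 0.0737), Esrra (-0.0023 to 0.1991), Sirt1 (-0.1268 to 0.0286) and Prkaa2 (-0.1508 to 0.1066), and iPSC minus ESC of Esrra (-0.042 to 0.0636) and Prkaa2 (-0.0586 to 0.076). It also turned high minus low over both cell types of Alas1 (-0.0451 to 0.0165), Tomm20 (-0.026 to 0.0406), Tomm70a (-0.0011 to 0.0477), Gabpb2 (-0.0833 to 0.0159) and Esrrb (-0.0458 to 0.0067), and iPSC minus ESC of Nfe2l3 (-0.0311 to 0.0537). Counts of called probe sets moved more. With 1 array left out they ran from 17 to 98 higher and 1 to 18 lower in ESC, 0 to 148 and 1 to 63 in iPSC, 261 to 444 and 118 to 251 over both cell types, and 122 to 236 and 272 to 444 in iPSC minus ESC. The brighter probe sets alone gave 89 lower in iPSC and 347 higher in iPSC minus ESC. Centring gave 70 higher and 85 lower in iPSC, against 88 and 50, and 361 higher and 368 lower over both cell types, against 403 and 228; it shifted the median of all probe sets by at most 0.058. Array weights gave 152 higher and 91 lower in iPSC, and the 6 ESC arrays alone 36 higher and 3 lower. The fixed replicate block, which could not be fitted for iPSC minus ESC, gave 146 higher and 31 lower in ESC, 142 and 94 in iPSC, 417 lower over both cell types and 1 higher for the difference of effects. The replicate block as a random effect, chosen after seeing the data, gave 170 and 32 in ESC, 304 and 198 in iPSC, 644 and 497 over both cell types, and 143 and 320 in iPSC minus ESC. Neither block changed a call of the 9 regulators. The causes of these shifts were not tested. The table has no signal over background, so dim genes such as Ppargc1a cannot be bounded.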
